A study of Arabidopsis thaliana with 6 samples.

Results

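The 6 genes described here encode subunits of SnRK1, a protein kinase complex, in young inflorescences of Arabidopsis thaliana. They were chosen by gene identifier as the catalytic subunits KIN10 (AT3G01090) and KIN11 (AT3G29160), the beta subunits AKINBETA1 (AT5G21170), AKINBETA2 (AT4G16360) and AKINBETA3 (AT2G28060), and SNF4 (AT1G09020), and all 6 are among the 17675 genes measured. RNA-seq was done on 3 libraries of plants treated with 10 µM dexamethasone (DEX) in DMSO and on 3 libraries of plants treated with DMSO. Plants of both groups had the genotype ARF3:ARF3-GR arf3-29, were 3 weeks old and grew at 23 °C in long days (16 h light), and only flowers up to stage 6 were left on the inflorescences, a tissue that the labels call floral meristems. ARF3 is an auxin response factor that acts in flower development, its own promoter drives the fusion, and fusion to GR holds a protein out of the nucleus unless DEX or another steroid binds. The treatments of both groups held 0.015% Silwet, a wetting agent. The DEX was applied to the inflorescences for a time that the labels do not state. No DEX library of plants lacking the fusion was analysed here, so effects of the steroid and of ARF3-GR cannot be told apart.

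SnRK1 is the plant counterpart of yeast SNF1 and animal AMPK, kinases that are active when sugar or energy is short. Each complex holds a catalytic alpha subunit, a beta subunit that acts as scaffold and helps to set where the complex sits in the cell, and a regulatory subunit of gamma type. In plants the kinase is known for switching growth over to the use of reserves in darkness or sugar shortage, and trehalose 6-phosphate, a signal of sucrose supply, inhibits it.

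Each library held 10703769 to 14469527 reads over the listed genes, as recovered from the deposited values, which are reads per 1000000 (RPM). Rank correlations across genes were 0.985 to 0.991 between libraries of the same treatment, and DEX-3 stood somewhat apart from DEX-1 and DEX-2. The 6 markers of young flowers summed to 970 to 1067 RPM in DEX libraries and 932 to 1002 RPM in DMSO libraries, and none of them was at 0. Of these markers PI and SEP3 rose (log2 fold changes of 0.63 and 0.34), STM and AP3 fell (-0.39 and -0.23), and LFY and AP1 did not pass. The 2 measured markers of tapetum and older anthers summed to 10.5 to 14.2 RPM in DEX and 3.62 to 4.40 RPM in DMSO libraries. Of these, MS2 was at 0 in every DMSO library. It is in the table through its DEX values, which favours such a difference. VGD1, also chosen as a marker of this kind, is not among the listed genes, so it could not be analysed. The 2 green leaf markers summed to 8150 to 8835 RPM in DEX and 6912 to 7188 RPM in DMSO, and the root marker PYK10 had 27.3 to 30.3 RPM in DEX and 17.5 to 21.5 RPM in DMSO. The part of these markers in the results below was not tested, and in whole inflorescences more cells of a type and more RNA per cell cannot be told apart.

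AKINBETA1 RNA was 5.44-fold higher in DEX libraries, mean SNF4 RNA fell by 31.4%, and the other 4 subunit genes did not pass the test. Of the 6 genes, 2 (33.3%) thus passed an adjusted p of 0.05 (limma, Benjamini-Hochberg over all genes), where 57.7% of all genes did, so calls were no more common among them than among all genes. By direction, 1 subunit gene was higher, where 29.6% of all genes were, and 1 was lower, where 28.1% were. The median log2 fold change of the 6 genes was -0.06, against 0.00 for all genes. All 6 genes had at least 1 RPM in all 6 libraries, so each is in the table whichever group is considered.

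**Figure D1:**
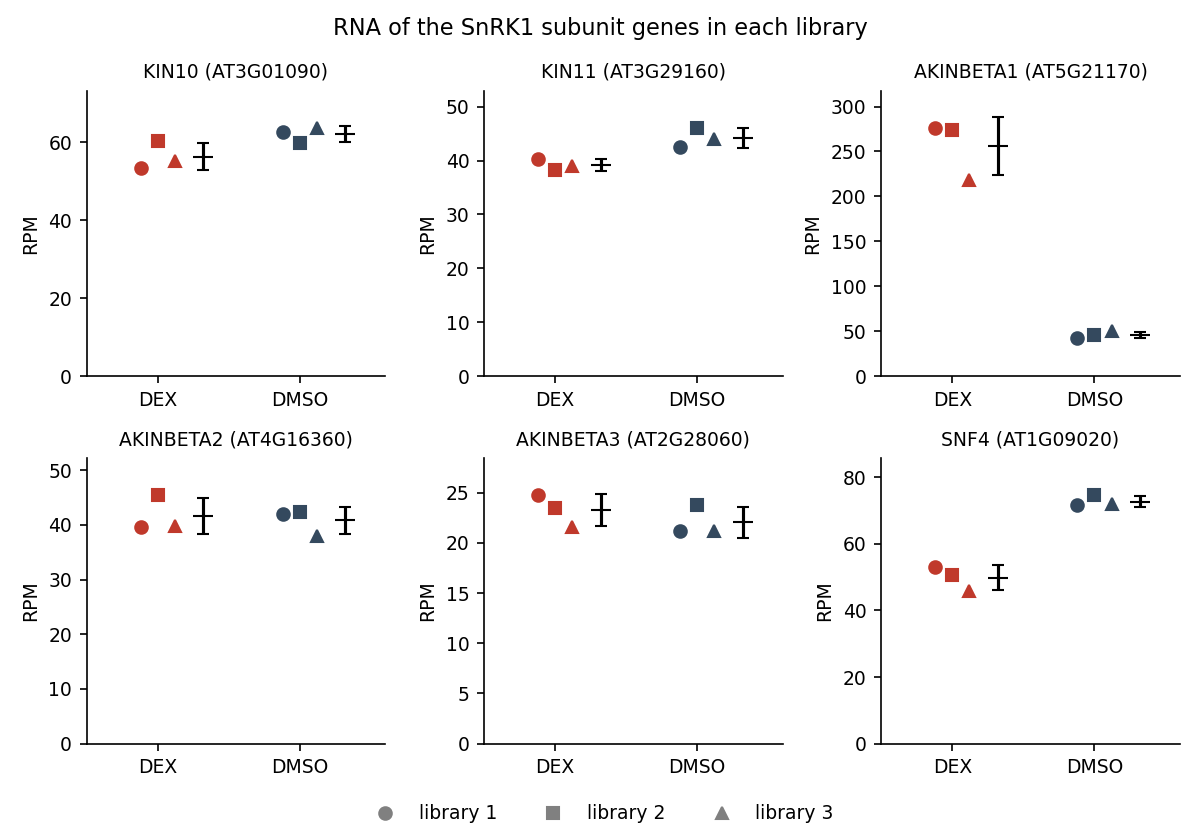
RNA of the 6 subunit genes in RPM, with 1 point per library, DEX left and DMSO right; the bars beside the points give the mean and SD of 3 libraries, and each panel has its own vertical axis that starts at 0. AKINBETA1 lies at 219 to 276 RPM in DEX against 42.9 to 49.9 RPM in DMSO, and SNF4 lies lower in every DEX library.

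The catalytic subunits carry the kinase activity, and either of them can form a complex. KIN10, which gives most of the activity in leaf extracts, had 53.4, 60.3 and 55.4 RPM in DEX-1, DEX-2 and DEX-3, against 62.7, 59.9 and 63.8 RPM in DMSO-1, DMSO-2 and DMSO-3. The groups overlapped, since DEX-2 lay slightly above DMSO-2, and the means were 56.4 ± 3.52 RPM in DEX and 62.1 ± 2.02 RPM in DMSO (SD, n = 3 each). The log2 fold change was -0.14 (SE 0.081, 95% interval -0.31 to 0.03, limma adjusted p = 0.151).

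KIN11, the close relative of KIN10, had 40.4, 38.2 and 39.0 RPM in DEX libraries and 42.5, 46.1 and 43.9 RPM in DMSO libraries. Every DEX value lay below every DMSO value. Groups that did not overlap were seen in 3 of the 6 subunit genes, 1 with DEX above (32.1% of all genes) and 2 with DEX below (30.7% of all genes), and in 62.9% of all genes in either direction. The means were 39.2 ± 1.09 RPM in DEX and 44.2 ± 1.83 RPM in DMSO, a log2 fold change of -0.17 (SE 0.086, 95% interval -0.35 to 0.01) that did not pass the test (limma adjusted p = 0.106). The intervals of both catalytic genes leave room for a small decrease and for next to none, and both exclude a change as large as that of SNF4.

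The beta subunits connect the kinase to its regulatory subunit. AKINBETA1 and AKINBETA2 have a carbohydrate-binding module and an N-terminal site for myristate, a lipid that ties a protein to membranes, while AKINBETA3 is a short plant form that lacks both. AKINBETA1 had 276, 273 and 219 RPM in DEX-1, DEX-2 and DEX-3, against 42.9, 45.5 and 49.9 RPM in DMSO libraries. The lowest DEX library lay far above the highest DMSO library, and DEX-3 was lower than the other DEX libraries. The means were 256 ± 32.5 RPM in DEX and 46.1 ± 3.50 RPM in DMSO, a ratio of means of 5.56. On the log2(RPM + 1) scale the fold change was 2.44 (SE 0.090, 95% interval 2.25 to 2.63, limma adjusted p = 3.03e-13), or 2.55 without DEX-3. Counting AKINBETA1 itself, 230 of the 17675 genes had a log2 fold change this high or higher.

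AKINBETA2 had 39.6, 45.4 and 39.8 RPM in DEX libraries, against 42.0, 42.4 and 38.0 RPM in DMSO libraries, and the groups overlapped. Its log2 fold change was 0.03 (SE 0.093, 95% interval -0.17 to 0.22, limma adjusted p = 0.826), and 3.76% of all genes had a smaller change. AKINBETA3 had 24.8, 23.5 and 21.6 RPM in DEX libraries, against 21.1, 23.8 and 21.2 RPM in DMSO libraries. These groups overlapped as well, with a log2 fold change of 0.07 (SE 0.110, 95% interval -0.16 to 0.31, limma adjusted p = 0.585). For both genes the interval excludes a change of the size seen in AKINBETA1.

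SNF4 encodes a plant hybrid of beta and gamma parts, in which a carbohydrate-binding module is joined to the nucleotide-binding type of domain found in gamma subunits. It had 53.2, 50.6 and 45.9 RPM in DEX libraries, against 71.7, 74.6 and 71.8 RPM in DMSO libraries. All DEX values lay below all DMSO values, with the lowest in DEX-3. The means were 49.9 ± 3.68 RPM in DEX and 72.7 ± 1.63 RPM in DMSO, a ratio of 0.686 and a log2 fold change of -0.54 (SE 0.082, 95% interval -0.71 to -0.36, limma adjusted p = 2.52e-05). Without DEX-3 it was -0.48. Of all genes, 62.7% changed by less, and the median size of the log2 fold change over all genes was 0.40.

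**Figure D2:**
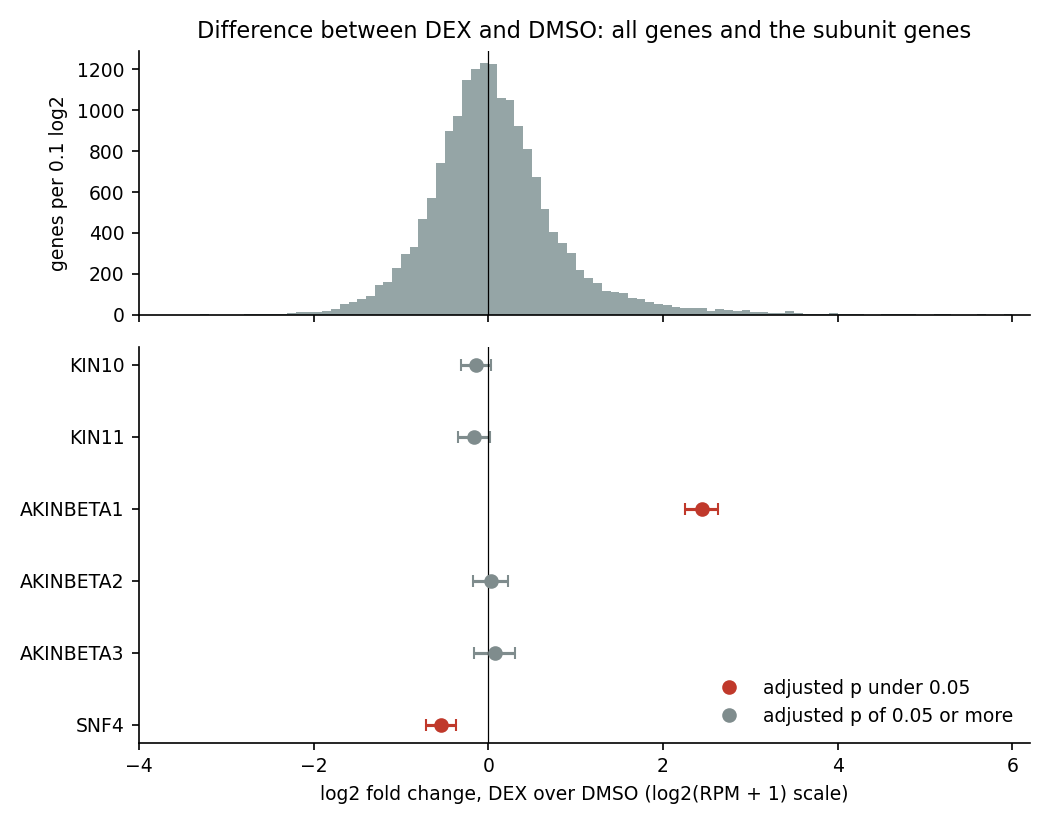
Log2 fold change of DEX over DMSO on the log2(RPM + 1) scale: the upper panel counts all 17675 genes in steps of 0.1, and the lower panel gives each subunit gene with its 95% interval. AKINBETA1 at 2.44 lies in the upper tail of all genes, SNF4 lies at -0.54, and the intervals of the other 4 genes include 0.

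Each value of these genes rests on 263 to 3956 reads per library. For KIN11, with a coefficient of variation of 2.77% in DEX and 4.15% in DMSO, the spread between libraries was no larger than counting error alone gives (4.41% and 4.18%). AKINBETA3 varied by 6.94% in DEX and 6.95% in DMSO, near its counting error of 5.73% and 5.92%. Among DEX libraries KIN10, AKINBETA2 and SNF4 varied by 6.25%, 7.90% and 7.37%, above counting errors of 3.66%, 4.26% and 3.92%. Among DMSO libraries they varied by 3.24%, 5.96% and 2.25%, where counting error gives 3.53%, 4.35% and 3.26%, so KIN10 and SNF4 lay below it there. AKINBETA1 varied by 12.7% among DEX libraries, where counting error gives 1.73%, and by 7.59% among DMSO libraries, where counting error gives 4.10%. Its wide spread in DEX came with the lower value in DEX-3.

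Levels of different genes were compared as RPM per kb of exon, with exon lengths from RefSeq. In DEX libraries AKINBETA1 came first with 157 ± 19.9 RPM per kb, followed by AKINBETA2 with 24.7 ± 1.95, KIN10 with 23.2 ± 1.45, SNF4 with 20.1 ± 1.48, AKINBETA3 with 18.9 ± 1.31 and KIN11 with 18.6 ± 0.514 (SD, n = 3). In DMSO libraries SNF4 came first with 29.2 ± 0.657 RPM per kb, followed by AKINBETA1 with 28.2 ± 2.14, KIN10 with 25.6 ± 0.830, AKINBETA2 with 24.2 ± 1.44, KIN11 with 20.9 ± 0.867 and AKINBETA3 with 17.9 ± 1.25. In DEX the ranges of AKINBETA2 and KIN10 overlapped, as did those of SNF4 and AKINBETA3 and of AKINBETA3 and KIN11. In DMSO the ranges of SNF4 and AKINBETA1 overlapped, as did those of AKINBETA1 and KIN10 and of KIN10 and AKINBETA2. The subunit RNAs thus lay within a narrow band in DMSO, and AKINBETA1 alone lay above that band in DEX. Among all genes, the RPM level of AKINBETA1 lay at percentile 96.4 in DEX and 77.5 in DMSO, and that of SNF4 at percentile 78.2 in DEX and 85.9 in DMSO.

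Of the beta subunit RNA per kb, AKINBETA1 made up 79.5%, 78.4% and 76.5% in DEX libraries, against 38.4%, 38.4% and 43.4% in DMSO libraries. The share of AKINBETA2 was 12.4 ± 1.25% in DEX and 34.5 ± 2.19% in DMSO, and that of AKINBETA3 was 9.48 ± 0.532% in DEX and 25.5 ± 1.16% in DMSO (SD, n = 3 each). These lower shares came with RPM levels of AKINBETA2 and AKINBETA3 whose groups overlapped. The summed beta level was 200.2 ± 22.0 RPM per kb in DEX and 70.3 ± 2.01 in DMSO. The summed catalytic level was 41.1, 42.9 and 41.3 RPM per kb in DEX libraries, against 45.9, 46.5 and 47.1 in DMSO libraries, so it lay slightly lower in each DEX library.

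**Figure D3:**
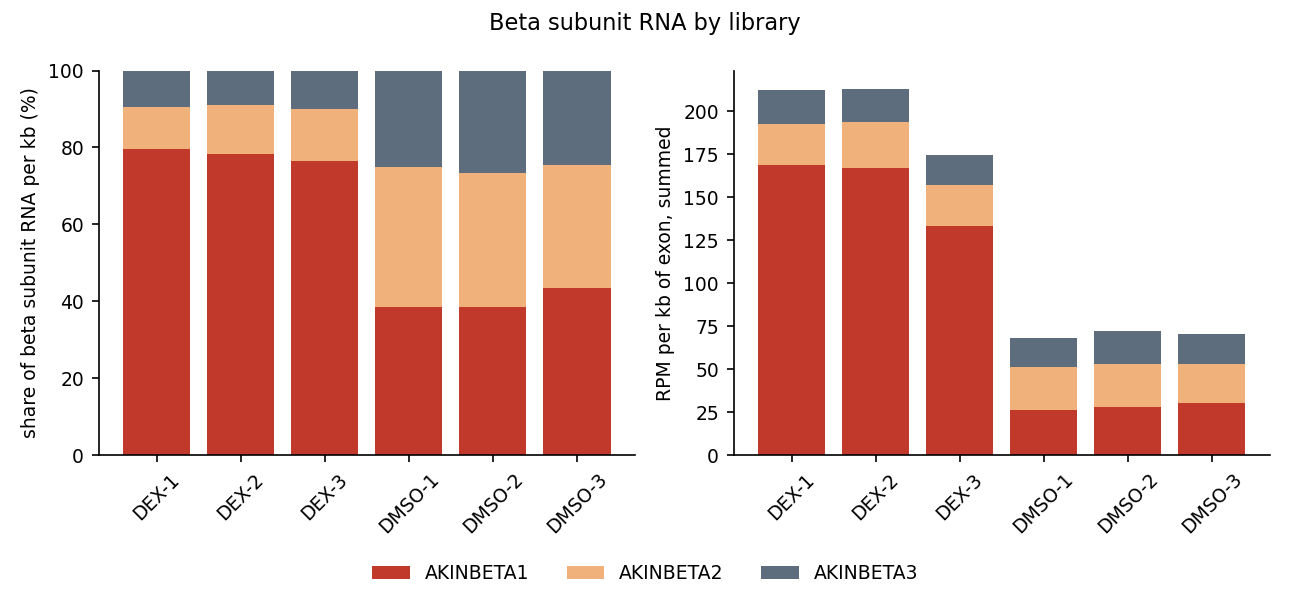
RNA of AKINBETA1, AKINBETA2 and AKINBETA3 in each library, as a share of their summed RPM per kb of exon (left, in %) and as stacked RPM per kb (right). AKINBETA1 takes 76.5 to 79.5% in DEX against 38.4 to 43.4% in DMSO, and the RPM levels of AKINBETA2 and AKINBETA3 overlap between the groups.

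The balance between subunits was tested with log2 ratios of RPM within each library, using an exact two-sided permutation test over the 6 libraries, whose smallest possible p is 0.1. Of 6 ratios, 4 reached that smallest p (adjusted p = 0.15 over the 6 ratios) with groups that did not overlap, so none could pass 0.05 in this design. Each of these 4 ratios holds AKINBETA1 or SNF4, which passed on their own, so the ratios are not separate results. The share of such ratios over other pairs of genes was not computed. The log2 ratio of AKINBETA1 to AKINBETA2 was 2.80, 2.59 and 2.46 in DEX libraries, against 0.03, 0.10 and 0.39 in DMSO libraries. The mean difference was 2.44 for this ratio and 2.39 for the ratio of AKINBETA1 to AKINBETA3. The log2 ratio of KIN10 to SNF4 was 0.01, 0.25 and 0.27 in DEX libraries, against -0.19, -0.32 and -0.17 in DMSO libraries, a mean difference of 0.40. For KIN11 to SNF4 the mean difference was 0.37. The log2 ratio of KIN10 to KIN11 was 0.52 ± 0.13 in DEX and 0.49 ± 0.10 in DMSO (exact permutation p = 0.9). KIN10 made up 55.6 ± 2.17% of the catalytic RNA per kb in DEX and 55.0 ± 1.73% in DMSO. The ratio of AKINBETA2 to AKINBETA3 was 0.84 ± 0.14 in DEX and 0.89 ± 0.09 in DMSO on the log2 scale (exact permutation p = 0.8). With so few libraries, these p-values cannot show that either ratio was unchanged.

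Genes with the most similar profile were sought among 14195 other genes with a mean of at least 5 RPM, as the smallest root mean square (RMS) difference between centred log2(RPM + 1) values over the 6 libraries. For AKINBETA1 these were PMAT1 (AT5G39050, RMS difference 0.085), the aquaporin gene RD28 (AT2G37180, 0.085) and PR4 (AT3G04720, 0.088), set against an RMS of 1.23 for the AKINBETA1 profile itself. Their log2 fold changes were 2.35, 2.48 and 2.43, near the 2.44 of AKINBETA1. PMAT1 had 293, 282 and 260 RPM in DEX libraries and 51.1, 54.4 and 55.6 RPM in DMSO libraries. Its DEX-3 value was the lowest of the DEX group, which the choice by profile over these same libraries favours. For SNF4 they were AT1G27400 (0.021), CAC2 (AT5G35360, 0.025) and AT5G22780 (0.026), against an RMS of 0.276 for SNF4. CAC2, which encodes the biotin carboxylase part of chloroplast acetyl-CoA carboxylase, had 115, 116 and 100 RPM in DEX libraries and 160, 164 and 159 RPM in DMSO libraries. Shared regulation of these genes with AKINBETA1 or SNF4 was not tested.

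The profiles of the other 4 subunit genes were nearly flat, with an RMS of 0.081 to 0.093. A match to so flat a profile can rest on scatter between libraries, and shared regulation was not tested. The nearest were AT4G17410 for KIN10 (0.024), FXG1 (AT1G67830) for KIN11 (0.022), AT4G29735 for AKINBETA2 (0.034) and AT3G13350 for AKINBETA3 (0.020). After these came ALC (AT5G67110, 0.025) and MORF3 (AT3G06790, 0.027) for KIN10, and TIM10 (AT2G29530, 0.023) and AT3G02280 (0.024) for KIN11. For AKINBETA2 they were WRKY22 (AT4G01250, 0.036) and GLL22 (AT1G54000, 0.040), and for AKINBETA3 they were SRC2 (AT1G09070, 0.021) and AT3G47850 (0.025).

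Other genes of gamma type and of the catalytic family were set beside the 6 subunit genes. KING1 (AT3G48530), annotated as a gamma subunit, had 140, 141 and 169 RPM in DEX libraries, against 42.0, 39.4 and 42.9 RPM in DMSO libraries. All DEX values lay above all DMSO values and the highest was in DEX-3, the library that stood somewhat apart from DEX-1 and DEX-2. The KING1 log2 fold change was 1.83 (SE 0.084, limma adjusted p = 6.23e-12). PV42a (AT1G15330), which encodes a protein with CBS domains, had 194, 228 and 218 reads in DEX libraries (18.1, 15.8 and 15.3 RPM), against 1, 6 and 0 reads in DMSO libraries (0.0804, 0.440 and 0 RPM). It is in the table through its DEX values, which favours such a difference, and its log2 fold change of 3.90 (limma adjusted p = 3.10e-11) was 2.05 with a pseudocount of 5 and 6.27 with a pseudocount of 0.1. Per kb of exon, KING1 reached 92.2 ± 10.1 RPM in DEX and 25.5 ± 1.11 in DMSO, whereas SNF4 had 20.1 ± 1.48 in DEX and 29.2 ± 0.657 in DMSO (SD, n = 3 each). KIN12 and PV42b are not among the listed genes, so they could not be analysed.

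**Figure D4:**
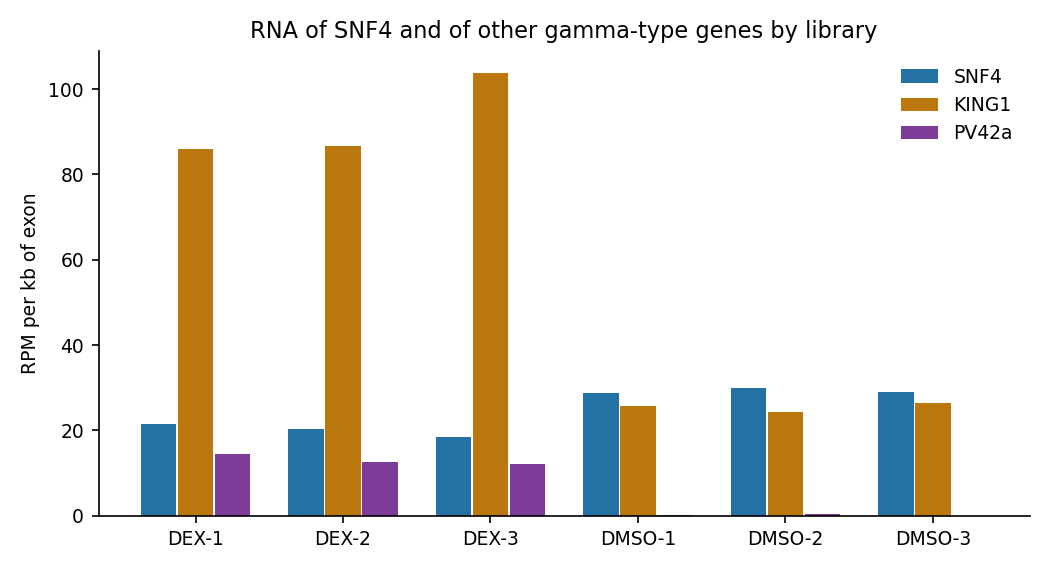
RPM per kb of exon of SNF4, KING1 and PV42a in each library, with bars from 0. In DEX libraries KING1 lies at 86.0 to 104 RPM per kb and SNF4 at 18.5 to 21.4, while in DMSO libraries KING1 lies at 24.2 to 26.4 and SNF4 at 28.8 to 30.0.

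Of 8 measured regulators of SnRK1, 1 rose and 4 fell, so 62.5% were called, near the 57.7% of all genes, with a median log2 fold change of -0.19 against 0.00 for all genes. ABI1 (AT4G26080), a phosphatase of abscisic acid signalling that acts on the kinase, rose to 237 ± 33.2 RPM in DEX, against 65.6 ± 1.40 RPM in DMSO (log2 fold change 1.83). PP2CA (AT3G11410), a related phosphatase, had 60.0 ± 5.20 RPM in DEX and 71.1 ± 3.71 RPM in DMSO, and its limma adjusted p of 0.0206 became 0.104 when DEX-1 was left out, 0.102 when DMSO-1 was left out and 0.0733 with no trend in the variance. TPS1 (AT1G78580), which makes trehalose 6-phosphate, fell to 9.18 ± 2.24 RPM in DEX, against 21.5 ± 1.04 RPM in DMSO (log2 fold change -1.17). In RefSeq, exons of ABI1, TPS1, HXK1, TPS5, RAPTOR1A, SNRK2.3, ASN1 and BCAT2 overlap a gene on the other strand, and reads of such partners cannot be told apart if counting ignored strand. The sugar sensor HXK1 (AT4G29130) fell by 0.57 and the inositol phosphatase 5PTASE13 (AT1G05630), which binds SnRK1, by 0.80 on the log2 scale. PRL1 (AT4G15900), SIZ1 (AT5G60410) and the myristoyltransferase NMT1 (AT5G57020) did not pass, with log2 fold changes of -0.13, 0.13 and 0.05. The activating kinases GRIK1 and GRIK2 are not among the listed genes, so they could not be analysed.

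Proteins of the FCS-like zinc finger (FLZ) family bind the catalytic subunits. Of 15 measured FLZ genes 5 rose and 7 fell, so 80% were called, against 57.7% of all genes (29.6% higher and 28.1% lower), and their median log2 fold change was -0.11. The number that rose was 3 without DEX-2 and 3 without DMSO-1. AT1G78020 fell to 33.9 ± 5.29 RPM in DEX, against 114 ± 6.06 RPM in DMSO, and AT4G17670 fell to 1.73 ± 0.429 RPM in DEX, against 6.76 ± 0.758 RPM in DMSO. AT1G53903 rose to 9.85 ± 1.91 RPM in DEX, against 2.71 ± 0.293 RPM in DMSO, but reads may be split between it and AT1G53885, which has the same RefSeq product name and exon length.

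Among 13 measured substrates 5 rose and 3 fell, so 61.5% were called, near the 57.7% of all genes, with a median log2 fold change of 0.31. The factor bZIP63 (AT5G28770) rose by 1.57 and F2KP (AT1G07110), which sets fructose 2,6-bisphosphate, by 0.68, while TPS5 (AT4G17770) fell by 0.93 on the log2 scale. All 17 measured genes that KIN10 is known to raise in leaf protoplasts rose, where 29.6% of all genes did, with log2 fold changes of 1.03 to 5.97 and a median of 2.73, headed by ASN1 (AT3G47340), SEN1 (AT4G35770) and BCAT2 (AT1G10070) at 5.97, 5.65 and 5.14. That list was written with earlier results of these data known, so it is no independent evidence of a direction.

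TOR is the kinase that promotes growth when nutrients are ample. Of 9 measured genes of the TOR complex, its S6 kinases and their ribosomal target, 3 rose and 4 fell, so 77.8% were called, against 57.7% of all genes, with a median log2 fold change of -0.23 and none changed by 1 or more. S6K2 (AT3G08720) rose by 0.78, and RAPTOR1B (AT3G08850), the TOR partner that SnRK1 phosphorylates, fell by 0.61, as did RAPTOR1A (AT5G01770) by 0.47. For RAPTOR1A the limma adjusted p was 0.0128, and it was 0.0512 when DMSO-3 was left out. The SnRK2 kinases are relatives of SnRK1 that act in abscisic acid and osmotic stress signalling. Of 7 measured, 5 rose and none fell, although 1 fell without DEX-3. Thus 71.4% were called, against 57.7% of all genes (29.6% higher), with a median log2 fold change of 0.58 and none changed by 1 or more. SNRK2.3 (AT5G66880) rose to 116 ± 5.46 RPM in DEX, against 58.8 ± 0.728 RPM in DMSO, and OST1 (AT4G33950) and SNRK2.10 (AT1G60940) rose by 0.74 and 0.63 on the log2 scale.

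**Figure D5:**
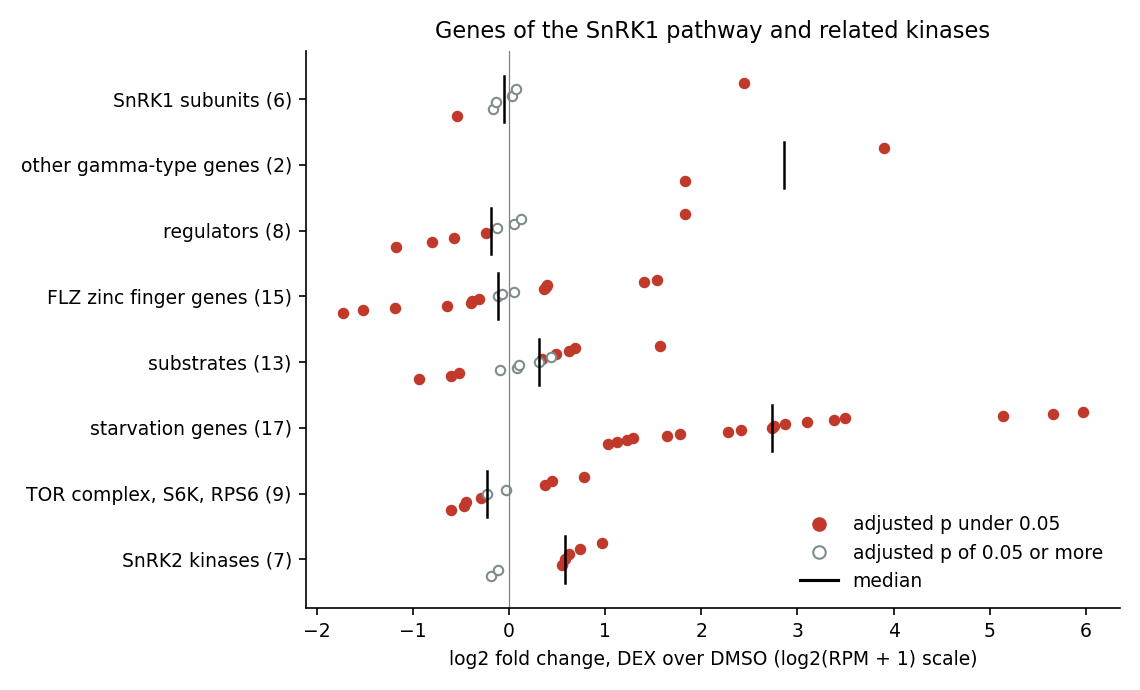
Log2 fold change of DEX over DMSO for each measured gene of the SnRK1 subunits and of 7 related lists, with filled points for genes past an adjusted p of 0.05 and a line at each median. The subunit genes have a median of -0.06 and the starvation genes one of 2.73.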

How the data were processed

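RNA-seq libraries of 3 DEX and 3 DMSO samples were grouped by their titles. Per the submitters' processing notes, the tools were TopHat and HTSeq. The sources used here give no settings for them, no genome build and no strand setting. Values as deposited are RPM scaled by the authors to 1000000 over the listed genes, all of which have at least 1 RPM in 3 or more libraries. From these, 100% of values gave whole reads within 0.01, and 1 read equals 0.0691 to 0.0934 RPM. Counting error is Poisson error of these reads, without molecular identifiers. Values were tested as log2(RPM + 1), which understates changes of weak genes, in limma 3.58.1 under R 4.3.3. Its variance prior followed the mean level, tests were two-sided, and p-values were adjusted over 17675 genes (Benjamini-Hochberg) with a threshold of 0.05. The planned minimum of 1 RPM in 3 libraries removed no gene. edgeR 4.0.16 and DESeq2 1.42.0 were run on the recovered reads as alternatives. The procedure was also run on simulated data in which few genes changed, whereas 57.7% of all genes were called here. That run therefore does not test the procedure under the conditions of these data. Symbols, exon lengths and overlaps of exons between genes came from RefSeq TAIR10.1. No source names the table's own build, so no sequences were used and the planned sequence comparison was not made. Named genes are the 6 subunits, all measured regulators and gamma-type genes, up to 3 of each other list by size of change among those past the threshold, and the 3 nearest profiles of each subunit. The members and lists were chosen with earlier results of these data known. Nothing says that libraries came from separate plants, so the p-values rest on a spread between libraries that may be technical. Within a group every pair of libraries was further apart than read sampling gives (chi-square over its degrees of freedom 2.80 to 12.0).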

Additional observations from a re-analysis of the deposited data

How the results depend on the processing

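AKINBETA1 and SNF4 kept their direction and passed in limma with other pseudocounts, minimums and scalings, without the trend or with robust moderation, with edgeR and DESeq2, with the replicate block and without each library, with log2 fold changes of 2.35 to 2.55 for AKINBETA1 and -0.58 to -0.48 for SNF4. With a required log2 fold change of at least 1, SNF4 at -0.54 was no longer called, so 0 subunit genes were lower. The calls over all 17675 genes were then 1563 higher and 924 lower, against 5238 and 4966. Under the same requirement 1 regulator was higher and 1 lower (against 1 and 4), and 2 FLZ genes were higher and 3 lower (against 5 and 7). Of the substrates, 1 was higher and 0 lower (against 5 and 3). From the TOR list 0 genes (against 3 and 4) and of the SnRK2 genes 0 (against 5 and 0) were called. The 17 starvation genes were all still called, but their list was written with earlier results of these data known. KIN10, KIN11, AKINBETA2 and AKINBETA3 passed in none of these settings, with the lowest adjusted p 0.0906 for KIN10. Values near 0 changed sign when a library was left out. The log2 fold change of AKINBETA2 ranged from -0.036 without DEX-2 to 0.060 without DEX-1 (-0.023 without DMSO-3), and that of NMT1 from -0.019 without DEX-2 to 0.132 without DEX-3. The log2 ratio difference of KIN10 to KIN11 ranged from -0.037 without DEX-2 to 0.089 without DEX-1 (-0.028 without DMSO-2), and that of AKINBETA2 to AKINBETA3 from -0.107 without DEX-2 to 0.029 without DEX-1. The cause was not tested. Same-numbered libraries had deviations with correlations of -0.05, 0.06 and 0.03 across genes, within the -0.10 to 0.08 of differently numbered libraries. The labels do not say whether same-numbered libraries share a plant or day, and these correlations cannot exclude it. With the replicate block AKINBETA1 remained at 2.44 (limma adjusted p = 5.79e-14) and SNF4 at -0.54 (adjusted p = 2.75e-05). The median log2 fold change of all genes was -0.0024 with TMM and -0.0035 with median-of-ratios scaling, against 0.0035. The 4 subunit genes that did not pass had 263 to 872 reads per library.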
